A study of Arabidopsis thaliana with 10 samples.

Results

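The 86 probe sets described here were lower in leaves of the Arabidopsis mutant oxt6 than in every other group of the series. They were chosen by the values themselves. On each of the 7 wild-type and complemented arrays the intensity was at least 60, and the lowest of those 7 was at least 1.5 times the highest of the 3 oxt6 arrays. Of 22746 probe sets that are not control features, 96 met both terms (0.422%), and the rule then left out 8 that belong to gene families or lists tabulated by the study (among them BGL2, SRC2 and GSTF8) together with OPT3 and OPR3. The 86 that remained are the members. The mirrored rule, high only in oxt6, was met by 431 probe sets (1.89%), of which 369 remained after the same exclusions. Because the difference between oxt6 and both other groups chose the members, that difference is given below as a description, with no test.

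A single gene was named here for 64 members, and 2 further probe sets match several genes each (BIP1 with BIP2, and FAMT with its neighbour AT3G44870). The other 20 members could not be named with the annotation used here and are given by probe set. Among the 64 named genes, 18 lie on chromosome 1, 5 on chromosome 2, 13 on chromosome 3, 11 on chromosome 4 and 17 on chromosome 5. In the order of annotated loci, 4 pairs of consecutive members had at most 20 loci between them: AT1G28150 and FIP1 with 4, GGR and AT4G38550 with 10, AT4G38550 and FP6 with 3, and TCP11 and AGAL1 with 6.

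AtCPSF30 is a zinc-finger protein of the nuclear complex that binds a pre-mRNA near its end, where it is cut and given a poly(A) tail. The plant gene also produces a larger mRNA that encodes a longer protein. The genes named among the members work in several parts of the leaf cell: germin-like proteins and pectin esterases act in the wall and apoplast, receptor kinases and WRKY factors relay signals at the cell surface and in the nucleus, and cytochrome CYP83B1 channels tryptophan-derived compounds into indole glucosinolates, defence compounds of the cabbage family.

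The series compared leaf RNA of 3 genotypes on 10 Affymetrix ATH1 arrays, on which a gene is read by a set of short probes. There were 3 arrays of the wild type (Columbia background), 3 of oxt6, and 4 of complemented plants. The oxt6 plants carry a T-DNA insertion in the first exon of the AtCPSF30 gene, At1g30460. The complemented plants are oxt6 plants that also carry AtCPSF30 under its own upstream region, in a construct that ends shortly after the stop codon of the smaller mRNA, so the larger mRNA is not restored. They came from 2 transgenic lines, line 5 and line 6, with 2 arrays each. All plants were 30 days old, grown in soil under short days with no stress treatment, and each RNA sample pooled many plants. The values are linear PLIER intensities that stop at a lower limit of 16. A level in a leaf sample cannot tell fewer cells of a type from less RNA per cell. The labels call the replicates biological but do not say whether they were grown separately, so p-values measure the spread between these samples.

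Median intensities ranged from 40.9 to 60.5 over the 10 arrays, and between 11 and 2935 probe sets lay at the lower limit. oxt6 replicate 1 stood apart, with the lowest median and the most probe sets at the limit. The AtCPSF30 probe set recognises only the larger mRNA, and read 38.7 to 71.2 in the wild type, 27.1 to 54.7 in oxt6 and 16 to 18.7 in the complemented plants. The oxt6 arrays thus overlapped the wild type and lay above the complemented plants, which carry the same insertion. By RNA blot the study found both mRNAs of the gene missing in oxt6, and it cites earlier work for the loss of both proteins. The probe set was faint even in the wild type, at 39.2, 38.7 and 71.2 where the array medians were 50.8, 49 and 57.9. It does not bear out the oxt6 label, but so faint a reading cannot decide whether the larger mRNA is present. The groups are named here as the labels give them. The 3'/5' signal, the mean over actin, GAPDH and ubiquitin controls of log2 of the 3' probe set over the 5' one, was 2.19 ± 0.19 (SD, n = 3) in the wild type, 2.25 ± 1.01 (n = 3) in oxt6 and 0.039 ± 0.069 (n = 4) in the complemented plants. Complemented minus wild-type was -2.15 (exact two-sided permutation p = 0.0286, the smallest that 3 against 4 arrays allow), oxt6 minus complemented was 2.21 (exact p = 0.0286), and oxt6 minus wild-type was 0.06 (exact p = 1, where 0.1 is the smallest possible). The signal of oxt6 replicate 1 was 1.09, against 2.90 and 2.77 on the other oxt6 arrays. Of 24 leaf, root, flower and seed markers, 4 could be matched. The leaf gene RCA read 1139.6 to 1569 in the wild type, 3350.6, 711.7 and 630.9 in oxt6 and 6043 to 8232 in the complemented plants. On RCA, oxt6 replicate 1 was thus above every wild-type array and the other oxt6 arrays were below. The guard cell gene FAMA read 18.1 to 28.6 in the wild type, 26.9 to 40.6 in oxt6 and 46 to 72.8 in the complemented plants. The root genes went opposite ways: PYK10 read 77.1 to 129.2, 179 to 204.9 and 253.4 to 330.8 in the same groups, and EXPA7 42.2 to 56.9, 29.8 to 48.6 and 16 to 28.2. Their sum was 119.3 to 186.1, 227.6 to 234.7 and 270.3 to 350.5. The part of these differences in the results below was not tested.

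**Figure D1:**
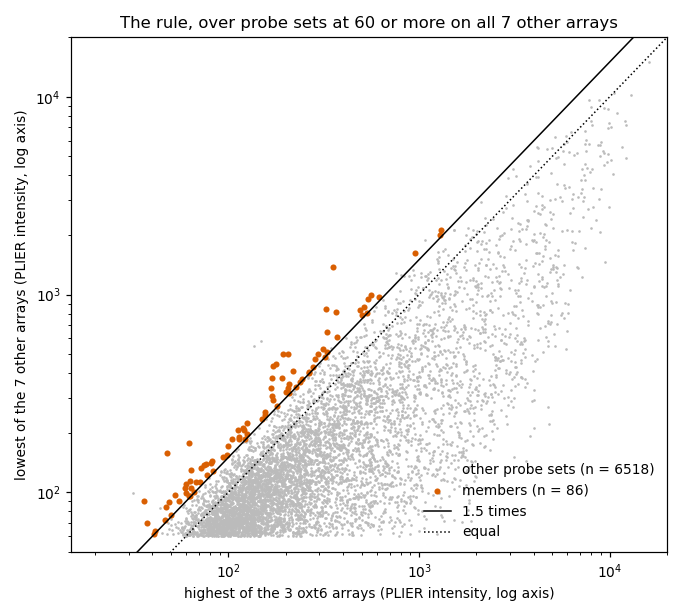
Each point is 1 of 6604 probe sets with at least 60 on all 7 wild-type and complemented arrays; the horizontal axis is its highest oxt6 array and the vertical axis its lowest other array, both PLIER intensities on log axes. The 86 members (orange) lie on or above the solid line at 1.5 times, and most lie close to it; the few grey points above it are probe sets that the rule left out.

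The gap between the groups was narrow for most members. The lowest of the 7 other arrays was 1.5 to 3.88 times the highest oxt6 array, with a median of 1.69, and 13 members reached 2. In terms of means, the wild type was 1.74 to 5.97 times oxt6 (median 2.36, at least 2 for 73 members), and the complemented plants were 1.75 to 19.3 times oxt6 (median 3.09, at least 2 for 83 members). Of the 6604 probe sets with at least 60 on the 7 other arrays, 820 had no overlap with oxt6 in this direction at any distance. Wild-type means of the members ran from 67.6 to 2340, so the set holds both faint and bright signals.

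Germin-like proteins, pectin esterases and other genes of the cell wall and surface made up 11 members. Their median gap was 1.71 times, against 1.69 over all members, but they held the 4 widest gaps. GER3 (AT5G20630), a germin-like protein of the apoplast, had the widest of all: it read 1377, 1548 and 2055 in the wild type, 260.5, 355 and 321 in oxt6, 2316 and 2726 in line 5 and 3159 and 3214 in line 6. The highest oxt6 array was thus far below the lowest wild-type array, and all 4 complemented arrays were above the wild type. The wild-type mean was 5.32 times and the complemented mean 9.15 times the oxt6 mean.

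AT5G10760, an aspartyl protease also named AED1 for its place in the apoplast, had a wild-type mean 5.97 times that of oxt6, a ratio that rests on low oxt6 values. It read 185.5, 209 and 158.5 in the wild type, 47.7, 27.8 and 17.1 in oxt6, 173.5 and 182 in line 5 and 286 and 302 in line 6. The line 5 arrays lay within the wild-type range and the line 6 arrays above it, and oxt6 replicate 3 was near the lower limit of 16. AGAL1 (AT5G08380), an alpha-galactosidase, read 177, 204 and 181 in the wild type, 62.5, 60.1 and 53.8 in oxt6, 767 and 877 in line 5 and 1501 and 1397 in line 6. Here the complemented plants did not return to the wild-type level but lay far above it, with means 19.3 times oxt6 and 6.06 times the wild type. PME3 (AT3G14310), which removes methyl groups from pectin, read 879, 918 and 847 in the wild type, 326, 259 and 259.7 in oxt6, 1054 and 984 in line 5 and 1524 and 1369.5 in line 6, a gap of 2.60 times, with line 6 higher than line 5 and both above the wild type.

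The blue copper protein BCB (AT5G20230) was, with GER3, the brightest wall and surface member, with 1819.8, 1975 and 1629.5 in the wild type, 947, 739 and 648 in oxt6, 2346 and 2789 in line 5 and 1928.5 and 1999 in line 6. Its line 6 arrays overlapped the wild type or lay just above it, and its line 5 arrays were highest. The pectin acetylesterase AT4G19410, the fatty acid hydroxylase CYP86A2, which acts in cutin synthesis, and the germin-like protein GLP5 had wild-type means 2.18, 2.27 and 2.14 times oxt6. For these 3 genes the complemented arrays overlapped the wild-type arrays. The GDSL lipase AT1G31550, AT1G63830, which the study's tables call proline-rich, and the glycosyl hydrolase AT5G20950 complete the group, with wild-type means 2.42, 2.99 and 2.92 times oxt6.

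**Figure D2:**
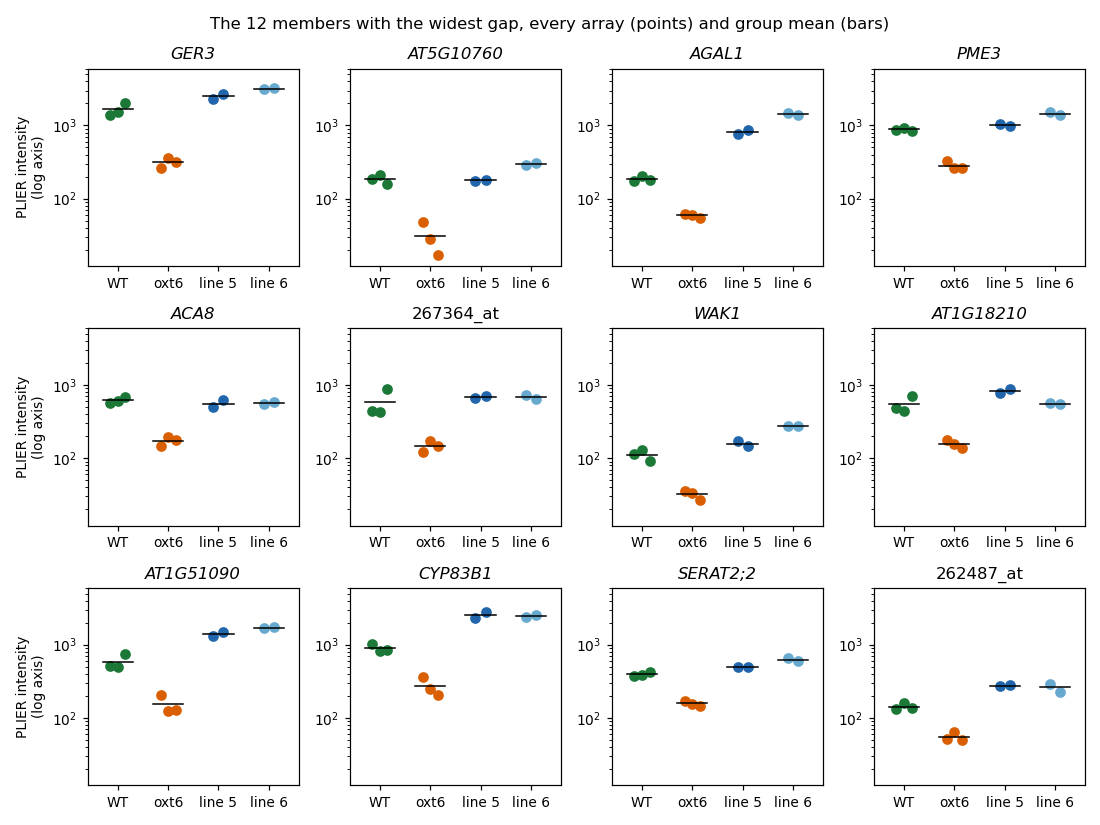
PLIER intensity (log axis) of the 12 members with the widest gap, by group; each point is an array, and each bar is the mean of the group (n = 3, 3, 2 and 2). The oxt6 points lie below all others in each panel, while the position of the complemented lines against the wild type differs: above it for AGAL1 (6.06 times) and CYP83B1 (2.78 times), and level with it for ACA8 (0.911 times).

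Transcription and signalling counted 12 members, from receptors at the cell surface to factors in the nucleus. The wall-associated kinase WAK1 (AT1G21250), whose outer part binds pectin, was a faint signal, with 114, 129 and 90.2 in the wild type, 35.9, 33.6 and 27.2 in oxt6, 169.5 and 146 in line 5 and 271.5 and 275 in line 6. All 3 oxt6 arrays were close together, and every complemented array was above every wild-type array. A lectin receptor kinase (RLK, AT2G37710) read 576.5, 599.5 and 544 in the wild type, 172, 115 and 110.1 in oxt6, 291 and 313 in line 5 and 396 and 386 in line 6. In contrast to WAK1, its complemented arrays all lay between the oxt6 and wild-type arrays.

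AT1G18210, an EF-hand calcium-binding protein, read 480.1, 447 and 714 in the wild type, 178, 157 and 139.7 in oxt6, 791 and 878 in line 5 and 569.7 and 549.5 in line 6, so that line 5 was above the wild type and line 6 within its range. WRKY70 (AT3G56400), a transcription factor of salicylate-dependent defence, read 598, 564.5 and 379 in the wild type, 190.5, 161 and 130.1 in oxt6, 559 and 634 in line 5 and 975 and 785 in line 6. The wild-type arrays themselves spread widely, and its gap of 1.99 times was set by wild-type replicate 3. AT1G07050, which has the CCT domain of CONSTANS-like proteins, was the only member with an oxt6 array at the lower limit: it read 95.5, 70.1 and 184 in the wild type, 16, 37.6 and 28.0 in oxt6, 342 and 358 in line 5 and 423 and 375 in line 6, and varied most within the wild type among the members of its group.

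The brightest signalling members were SPR1 (AT2G03680), a microtubule-associated protein that keeps cells growing straight, and TCP11 (AT5G08330), a TCP transcription factor also called CHE that binds the promoter of the clock gene CCA1. SPR1 read 1019.6, 973 and 1364 in the wild type, 616, 508 and 480 in oxt6, 1119.6 and 1005 in line 5 and 1221 and 1184 in line 6, and TCP11 read 640.3, 612 and 827 in the wild type, 370.2, 218 and 203 in oxt6, 672 and 622 in line 5 and 658 and 651 in line 6. For both, the complemented arrays fell within the wild-type range. The Raf-related kinase ATMRK1, the kinase ATSIK, the PP2C phosphatase AT5G27930 and the formin-interacting protein FIP1 had wild-type means 2.73, 1.88, 2.18 and 2.22 times oxt6. AT5G27930 differed from the others in its complemented mean, at 3.81 times the wild type.

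Transport and metal binding gave 11 members. ACA8 (AT5G57110), a calcium pump of the plasma membrane, read 573, 599 and 686 in the wild type, 148, 193 and 179.6 in oxt6, 498 and 619 in line 5 and 556 and 584 in line 6. The complemented and wild-type arrays overlapped, and the wild-type mean was 3.57 times that of oxt6. AT1G51090, a heavy-metal-associated protein, read 510.4, 503 and 740.2 in the wild type, 204, 125 and 128.5 in oxt6, 1306 and 1476 in line 5 and 1666 and 1738 in line 6, with every complemented array above every wild-type array. Its mean in the complemented plants was 10.1 times that in oxt6.

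The sugar transporter ERD6 (AT1G08930) and FP6 (AT4G38580), a farnesylated metal-binding protein also known as HIPP26, were the brightest of this group. ERD6 was even within oxt6, at 1222.5, 1139.5 and 991 in the wild type, 562, 562 and 532 in oxt6, 1586 and 1680.4 in line 5 and 1306 and 1212 in line 6. FP6 read 1099.8, 1111 and 1294 in the wild type, 539, 378 and 379 in oxt6, 998.5 and 946 in line 5 and 1159.9 and 1173 in line 6, with the complemented arrays within or below the wild-type range. Both thus had complemented arrays that overlapped the wild type, unlike AT1G51090.

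The group further held GTR1, which carries glucosinolates into cells, SYP121, a plasma membrane syntaxin needed to resist fungal entry, the hexose transporter AT5G61520, the heavy-metal-associated protein AT3G05220, the vacuolar proton pump subunit VHA-A3, the auxin influx carrier LAX1 and the prenylated Rab acceptor PRA1.B4. Their wild-type means were between 1.87 (VHA-A3) and 3.03 (AT3G05220) times oxt6. GTR1 read 47.0, 46.6 and 48.9 in oxt6, the smallest spread of that group among these genes, against 94.9, 89.2 and 121 in the wild type. LAX1 was uneven within oxt6, at 278, 133 and 108, against 431, 503 and 461 in the wild type.

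Among the 7 members of metabolism, 2 act on tryptophan or its products. CYP83B1 (AT4G31500), the cytochrome P450 that converts indole-3-acetaldoxime on the way to indole glucosinolates, read 1033, 820 and 854 in the wild type, 366, 244 and 204 in oxt6, 2293 and 2760 in line 5 and 2412 and 2558 in line 6. The 4 complemented arrays were all at least 2-fold above every wild-type array, and their mean was 9.24 times that of oxt6. TSA1 (AT3G54640), the alpha chain of tryptophan synthase, read 98.7, 93.4 and 84.5 in the wild type, 46.9, 42.9 and 35.2 in oxt6, 135 and 156 in line 5 and 187 and 167 in line 6. It was far fainter, with the same order of the groups.

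SERAT2;2 (AT3G13110), a serine acetyltransferase that makes the precursor of cysteine in mitochondria, read 376, 384.5 and 428 in the wild type, 170.1, 154 and 147 in oxt6, 491 and 498 in line 5 and 663 and 589 in line 6. AT5G05600, an oxygenase that depends on 2-oxoglutarate and iron, read 513, 527 and 826 in the wild type, 131, 283 and 227 in oxt6, 715 and 994 in line 5 and 500.5 and 472 in line 6. SERAT2;2 was even within the wild type and oxt6, whereas AT5G05600 spread in all of them and its lowest oxt6 array was replicate 1. Probe set 246340_s_at, which matches the farnesoic acid methyltransferase FAMT and AT3G44870, read 133, 157 and 149.8 in the wild type, 43.3, 71.6 and 45.1 in oxt6, 644 and 647 in line 5 and 238 and 200.5 in line 6. It was the member on which the complemented lines differed most. The aldose epimerase AT3G17940 and the farnesol dehydrogenase FLDH had wild-type means 2.24 and 2.09 times oxt6.

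Proteins of the chloroplast and mitochondrion accounted for 5 members, all nuclear genes. GGR (AT4G38460), the small subunit of a geranylgeranyl diphosphate synthase, which feeds chlorophyll and carotenoid synthesis, read 349, 335 and 451 in the wild type, 167, 132.5 and 126 in oxt6, 359 and 440.2 in line 5 and 469 and 473 in line 6. YLMG1-1 (AT3G07430), a chloroplast protein, read 211, 232 and 241 in the wild type, 119, 90.8 and 89.3 in oxt6, 243 and 327 in line 5 and 327 and 339.6 in line 6. In both, oxt6 replicate 1 was the highest oxt6 array, as it was for all 5 genes of the group. The mitochondrial import channel TIM23-1, the chloroplast NDH assembly factor CRR6 and the phosphoglycerate kinase AT1G56190 had wild-type means 2.92, 2.17 and 2.39 times oxt6.

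RNA and protein turnover gave 7 members. AT5G59950, the mRNA export adaptor ALY1, read 549, 532 and 584 in the wild type, 312, 124 and 123 in oxt6, 591 and 599.8 in line 5 and 765 and 759.7 in line 6. The oxt6 mean hides an uneven group, since replicate 1 was over 2-fold above the others. AT1G23780, an F-box protein, read 245, 282 and 311 in the wild type, 115, 156 and 108 in oxt6, 429 and 502 in line 5 and 606 and 587 in line 6, with every complemented array above every wild-type array.

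A pair of catalytic-core subunits of the proteasome, PBB1 (AT3G27430) and PBG1 (AT1G56450), lay just inside the rule. PBB1 read 186, 199 and 216 in the wild type, 122, 79.3 and 75.5 in oxt6, 225.5 and 291 in line 5 and 269 and 258 in line 6, and PBG1 read 447, 459 and 362 in the wild type, 167, 180 and 173 in oxt6, 273 and 356 in line 5 and 448 and 435 in line 6. PBG1 was even within oxt6, and its gap was set by line 5 replicate 1. Probe set 245956_s_at, shared by the endoplasmic reticulum chaperones BIP1 and BIP2, read 144, 129 and 114 in the wild type, 59.5, 62.6 and 49.4 in oxt6, 297 and 332 in line 5 and 541 and 522 in line 6, and its complemented mean was far above that of the wild type, by 3.28 times. The RNA-binding protein AT4G14300 and the RING finger protein AT5G60710 had wild-type means 1.98 and 2.22 times oxt6.

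For 13 named members no role is given here. Among the brightest was LEA14 (AT1G01470), a late embryogenesis abundant protein, with 2115, 2430.4 and 2469 in the wild type, 1307, 846 and 819 in oxt6, 3823 and 4459 in line 5 and 3637 and 3609 in line 6, and AT4G38550 had the largest complemented mean against oxt6 of the 13, at 13.9 times. Over the 13, wild-type means were 1.81 to 3.54 times oxt6. The 20 members with no gene named covered a similar range, 1.74 to 3.97 times oxt6 for the wild type, and up to 15.9 times for the complemented plants. Among them were 267364_at, with 443, 434.5 and 871 in the wild type, 123, 172 and 149 in oxt6, 666 and 713 in line 5 and 724 and 642 in line 6, and 262487_at, with 130.3, 161 and 134, 51.2, 63.3 and 49.6, 269.6 and 278 and 294 and 228 in the same order. Both belong to the 12 widest gaps. The complemented arrays overlapped the wild type for the first and lay above it for the second.

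**Figure D3:**
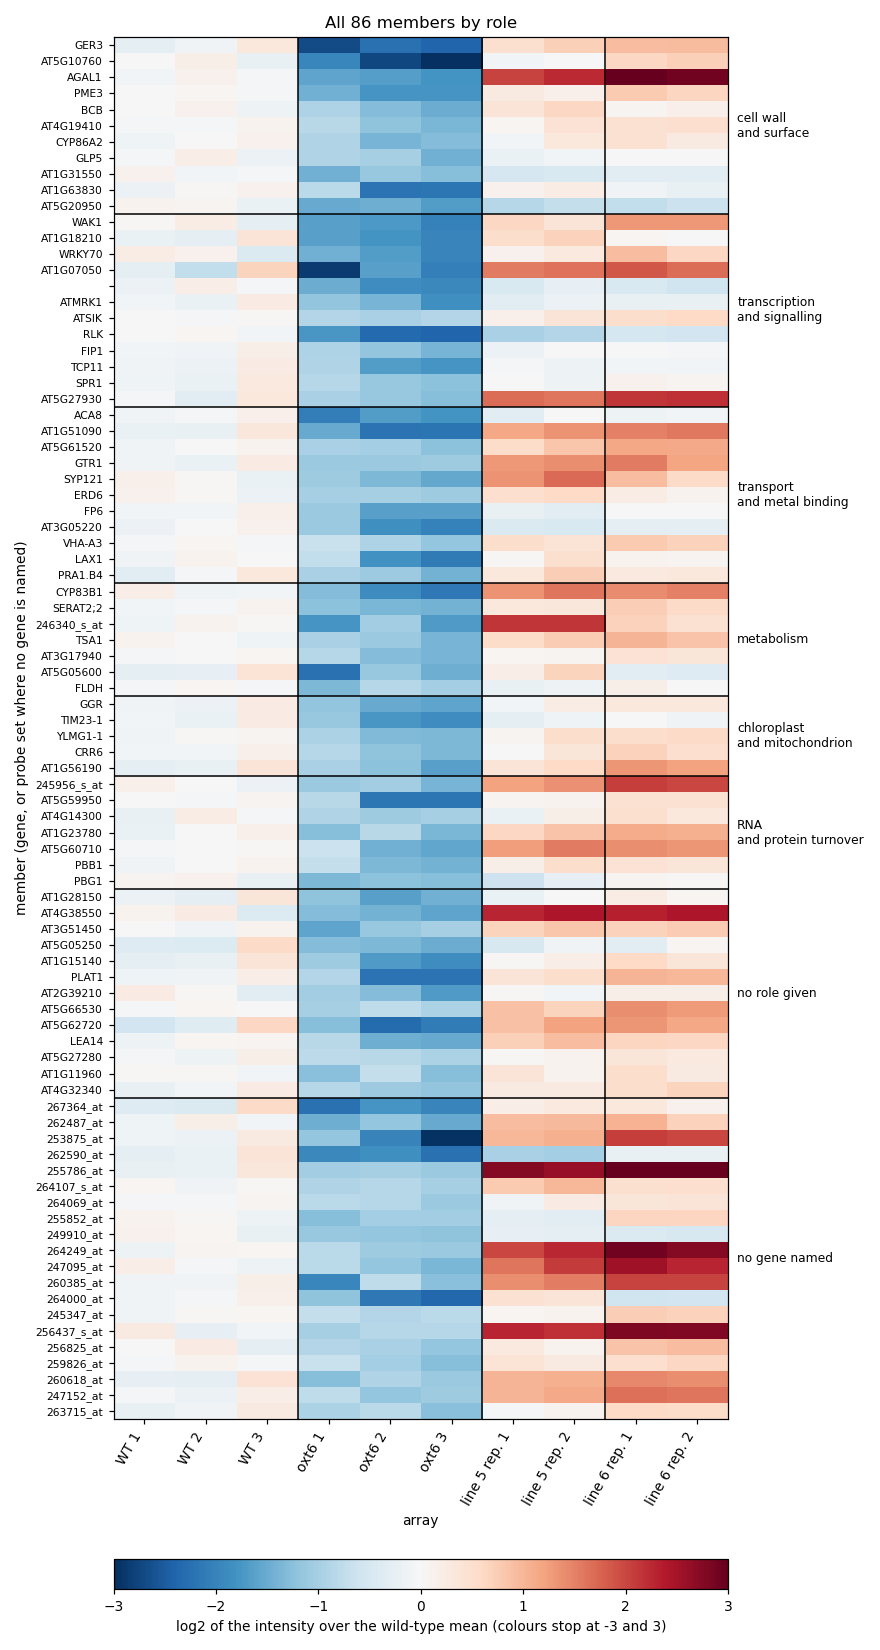
All 86 members (rows, ordered by role and then by gap) on the 10 arrays (columns); colour is log2 of the intensity over the mean of the 3 wild-type arrays, and stops at -3 and 3. The 3 oxt6 columns are blue throughout, oxt6 replicate 1 is the palest of them for 59 members, and the complemented columns run from pale blue (AT5G20950, 0.599 times the wild-type mean) to deep red (255786_at, 7.70 times).

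The members did not share one pattern within oxt6. Replicate 1 was the highest oxt6 array for 59 members (68.6%), replicate 2 for 23 and replicate 3 for 4. Over the 6604 probe sets at 60 or more on the other arrays, replicate 1 was the highest oxt6 array for 33.9%, replicate 2 for 55.9% and replicate 3 for 10.2%. Since the rule takes the highest oxt6 array, replicate 1 decides membership more often than the others, and without it the same rule finds 383 probe sets, the 86 members included. Without replicate 2 or replicate 3 it finds 119 or 88. On the other side the lowest array was a wild-type array for 65 members and a complemented array for 21. The coefficient of variation among arrays of a group had a median over members of 11.9% in the wild type, 16.5% in oxt6 and 14.6% in the complemented plants, against 13.4%, 18.9% and 12.8% over the 12453 probe sets tested below.

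At the threshold, taking probe sets with a named gene, just inside stood AT5G20950, with 668, 652 and 543 in the wild type, 217, 226 and 195 in oxt6, 342 and 380.3 in line 5 and 371 and 394 in line 6, a gap of 1.51, followed by AT1G63830 at 1.51, PBG1 at 1.52 and PBB1 at 1.52. AT1G63830 was uneven in oxt6, at 237, 90.7 and 92.5, against 371.5, 429 and 456 in the wild type, 455 and 492 in line 5 and 391 and 359.5 in line 6. Just outside stood AT1G01300 at 1.4987, AT2G12400 at 1.4933, AT5G11770 at 1.4893 and AT1G22610 at 1.4845. AT1G01300 read 266, 254.5 and 313 in the wild type, 100.4, 119 and 119.9 in oxt6, 193 and 179.7 in line 5 and 325 and 297 in line 6, and AT2G12400 read 234, 280.1 and 276, 157, 138.5 and 136, 253 and 299 and 234 and 245 in the same order. AT5G11770 and AT1G22610 had wild-type means 2.64 and 1.84 times oxt6 and complemented means 3.72 and 2.83 times oxt6. These 4 do not overlap oxt6 either and differ from the members only in the size of the gap.

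How far the complemented plants returned to the wild-type level is a comparison that the rule does not set, although it limits how low a complemented array can be. Every complemented array was above every wild-type array for 42 members (48.8%, against 38.8% of all 12453 probe sets tested), and below for 6 (6.98%, against 35.5%), and the arrays overlapped for 38. In a limma fit to log2(value + 1) over the 12453 brightest probe sets, with Benjamini-Hochberg adjustment over all of them, 40 members were higher in the complemented plants (46.5%, against 38.0% of all tested) and 6 were lower (6.98%, against 33.8%), while 40 passed in neither direction. The median difference was 0.396 on the log2 scale over the members and 0.0435 over all probe sets tested. The share of higher calls was not far from that of all probe sets, and the low share of lower calls follows in part from the rule, which asks each complemented array to be at least 1.5 times the highest oxt6 array.

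The largest increases were those of 255786_at (log2 difference 2.94 ± 0.20 (SE), adjusted p = 2.15e-07), AGAL1 (2.54 ± 0.23, adjusted p = 1.11e-06), 256437_s_at (2.52 ± 0.19, adjusted p = 4.84e-07) and 264249_at (2.47 ± 0.21, adjusted p = 8.6e-07), each from limma with n = 4 and 3. Probe set 255786_at read 207, 211 and 307 in the wild type, 118, 121 and 111.5 in oxt6, 1629.8 and 1479 in line 5 and 2221 and 2105 in line 6, and 256437_s_at read 139, 96.0 and 109, 57.6, 62.8 and 63.0, 559 and 519.8 and 800.2 and 781 in the same order. In these and in 264249_at, with 122, 142 and 139.9 in the wild type, 76.8, 64.2 and 61.7 in oxt6, 538 and 639.8 in line 5 and 1001 and 902 in line 6, the wild type lay far closer to oxt6 than to the complemented plants.

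Among the lower ones were RLK (-0.74 ± 0.19, adjusted p = 0.0034), AT5G20950 (-0.73 ± 0.15, adjusted p = 6.82e-04) and 262590_at (-0.57 ± 0.24, adjusted p = 0.0472), by limma. Probe set 262590_at read 239.5, 255.5 and 380.5 in the wild type, 77.0, 82.1 and 61.4 in oxt6, 149 and 144 in line 5 and 252 and 249 in line 6, so its line 5 arrays were well below the wild type and its line 6 arrays within it. For RLK and AT5G20950 no complemented array reached the wild-type range. AT1G31550 (-0.39) and 249910_at (-0.35) were lower as well.

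By role, the complemented plants were higher for 3 and lower for 2 of the 11 wall and surface members, higher for 4 and lower for 2 of the 12 signalling members, and higher for 5 of the 11 transport members with none lower. CYP83B1 (1.48 ± 0.20, adjusted p = 2.22e-05), TSA1 (0.79 ± 0.16, adjusted p = 5.94e-04), SERAT2;2 (0.49 ± 0.16, adjusted p = 0.0145) and 246340_s_at (1.35 ± 0.38, adjusted p = 0.00543) were the 4 of 7 metabolic members that rose, again by limma. Of the 5 chloroplast and mitochondrial members 2 were higher, of the 7 in RNA and protein turnover 3, of the 13 without a given role 7, and of the 20 unnamed 12, with 2 lower. Over all probe sets tested, 38.0% were called higher and 33.8% lower. With so few members in each role, these counts are not read as traits of a role. Members that did not pass limma's test in either direction include ACA8 (-0.14 ± 0.16, adjusted p = 0.463), TCP11 (-0.08 ± 0.21, adjusted p = 0.747), SPR1 (0.03 ± 0.17, adjusted p = 0.883) and PBG1 (-0.18 ± 0.19, adjusted p = 0.406). The 3'/5' signal given above differed between exactly these groups, and with that signal as a term in the fit 17 members were higher (19.8%, against 24.6% of all probe sets tested) and 8 lower (9.3%, against 8.66%). In that fit the share of members called higher was thus below that of all probe sets, where without the term it was above. Between groups, the signal of the complemented plants (mean 0.039) was far from that of the wild type (2.19) and of oxt6 (2.25). Within groups it varied mostly among the oxt6 arrays (SD 1.01, against 0.19 in the wild type and 0.069 in the complemented plants). The rule used the same oxt6 arrays, so this change in share is not independent of how the members were chosen.

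**Figure D4:**
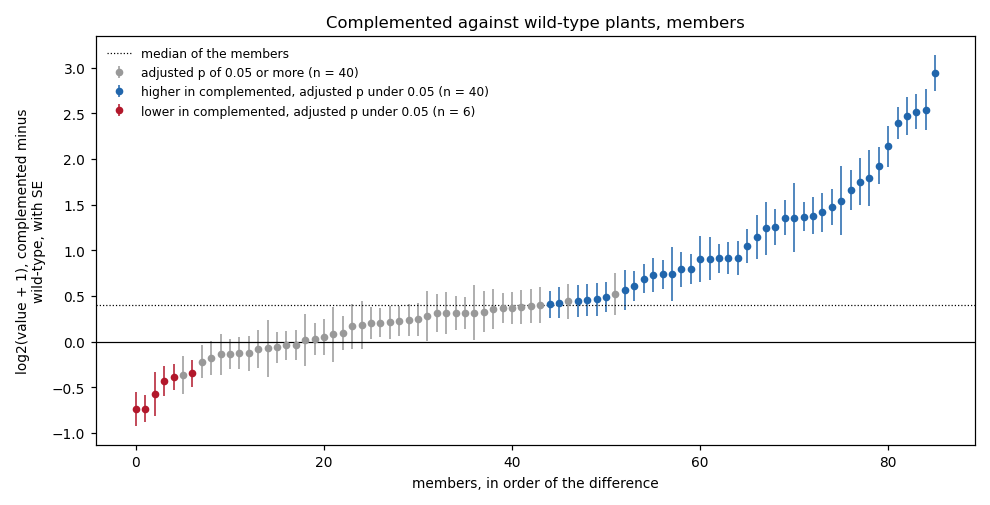
Difference between complemented and wild-type plants for each of the 86 members, on the log2(value + 1) scale from limma with its SE (vertical axis), in order of size (horizontal axis). Members with an adjusted p under 0.05 are blue where higher (40) and red where lower (6). Grey members (40) run from -0.36 (AT3G05220) to 0.52 (WRKY70), most of them above 0, and the dotted line is the median of all members, 0.396.

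The 2 complemented lines derive from separate transgenic lines, and their members differed mostly in one direction. Both line 6 arrays were above both line 5 arrays for 54 members (62.8%, against 39.5% of all probe sets tested), line 5 was above for 12 (against 22.6%), and the arrays overlapped for 20. The sum of the 86 intensities was 53162 and 58246 in line 5 and 65383 and 63988 in line 6. In limma, with 2 arrays per line and the spread shared over all 4 groups, 1 member passed as higher in line 5 (1.16%, against 3.20% of all tested) and 3 as higher in line 6 (3.49%, against 1.06%). The median of line 5 minus line 6 was -0.255 on the log2 scale over the members and -0.08 over all tested.

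The member higher in line 5 was 246340_s_at of FAMT and AT3G44870, by 1.56 ± 0.24 (SE, limma adjusted p = 0.00229). Those higher in line 6 by limma were AGAL1 (difference -0.82 ± 0.18, adjusted p = 0.0197), 255852_at (-0.95 ± 0.18, adjusted p = 0.00768) and the BiP probe set 245956_s_at (-0.76 ± 0.19, adjusted p = 0.047). Probe set 255852_at read 433, 415 and 363 in the wild type, 167.5, 201 and 196 in oxt6, 329 and 320.1 in line 5 and 629 and 628 in line 6, so that the wild type lay between the lines. The call of 246340_s_at held with each array left out. Those of the other 3 were lost when any 1 of the 4 complemented arrays was left out (0 members higher in line 6), although the differences stayed between -0.92 and -0.72 for AGAL1, between -0.97 and -0.93 for 255852_at and between -0.84 and -0.68 for 245956_s_at. They were also lost with arrays scaled to one median (0), and the call of 245956_s_at was lost without wild-type replicate 1, wild-type replicate 2 or oxt6 replicate 2 as well.

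**Figure D5:**
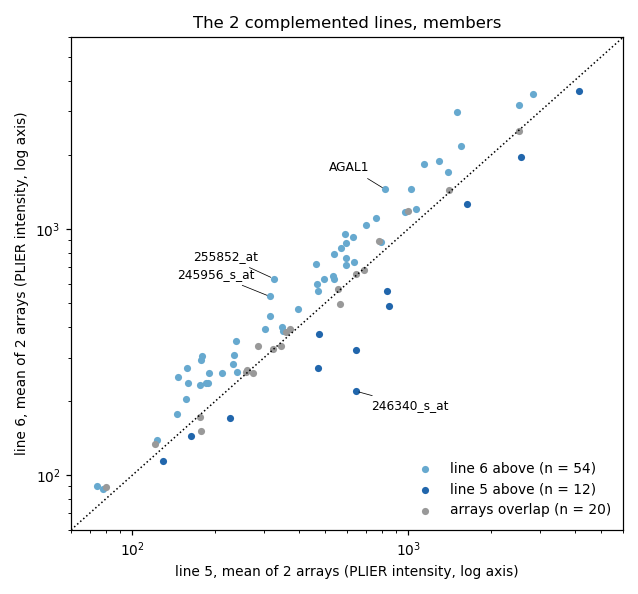
Mean intensity of the 2 line 6 arrays (vertical axis) against that of the 2 line 5 arrays (horizontal axis) for the 86 members, both on log axes, with the line of equality dotted. Light blue points are the 54 members with both line 6 arrays above both line 5 arrays, dark blue the 12 with line 5 above and grey the 20 that overlap; the 4 named points passed the test between the lines.

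Genes related to the members were followed in 14 lists with 147 genes of the same pathways and families, of which 17 are members and 108 could not be matched to a probe set here. That left 21 relatives that were tested and 1 too faint to be tested. One of the 21, PR2, met the level and separation of the rule and was left out of the members as a defence gene, so its direction was fixed by that choice and the counts below omit it. Because few genes of each list could be read, the counts describe those genes and not the families. Some probe sets were named only from the study's tables, which include a list of genes that differed between oxt6 and the wild type. A relative could thus be matched partly because it changes in these data. The shares of all probe sets are therefore no fair yardstick for these counts. In oxt6 against the wild type, 9 of the other 20 were lower and 2 higher (all probe sets tested 12.3% lower and 16.4% higher), with a median of -0.532. In oxt6 against the complemented plants, 10 were lower and 6 higher (all tested 37.0% lower and 32.3% higher), with a median of -0.303. Both comparisons share the oxt6 arrays. The 3'/5' signal differed between oxt6 and the complemented plants without overlap, and with it as a term in the fit 5 relatives were lower and 1 higher with PR2 counted (all tested 18% lower and 7.19% higher).

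The relatives of WRKY70 in salicylate-dependent defence were mostly low in oxt6 and low in the complemented plants too. Against the wild type 5 of 6 fell in oxt6, and against the complemented plants 1 was lower and 2 were higher. PR1, the defence marker, averaged 437 ± 74.0 over 3 wild-type arrays (mean ± SD), 37.3 ± 5.48 over 3 oxt6 arrays and 31.9 ± 5.77 over 4 complemented arrays. The limma difference of oxt6 from the wild type was -3.51 (adjusted p = 5.94e-07), and from the complemented plants it was 0.23 (adjusted p = 0.287). EDS1, a regulator upstream of salicylate, went from 223 ± 59.7 in the wild type to 46.0 ± 12.3 in oxt6 and 30.1 ± 3.98 in the complemented plants. WRKY70 itself stood at 514 ± 118, 160 ± 30.2 and 738 ± 184 in the same groups. Of these 3 genes it was the one whose complemented level overlapped the wild type. As a member, WRKY70 was by the rule above oxt6 in the complemented plants, which PR1 and EDS1 did not have to be. PR5 was lower in both comparisons, with log2 differences of -3.72 and -0.96, and the glucanase PR2 (the BGL2 named above), whose direction the rule's terms fixed, differed by -3.34 and -1.63. Here and in the next sentences the wild-type comparison comes first.

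The relatives of CYP83B1, TSA1 and GTR1 in tryptophan and indole glucosinolate metabolism were all lower in oxt6 than in the complemented plants (3 of 3, in the fit without the 3'/5' term), and 1 was below the wild type. That one was IGPS, an enzyme of tryptophan synthesis (-0.60 with adjusted p = 0.0324 and -1.27 with adjusted p = 3.83e-05, by limma). The glucosinolate glucosyltransferase UGT74B1 (-0.41 and -1.35) and the transporter GTR2 (0.34 and -1.20) passed against the complemented plants alone. Of 3 pectin methylesterases beside PME3, 2 were lower than in the wild type, while 2 were higher than in the complemented plants, whereas PME3 was by the rule below both. PME35, for example, differed by -0.96 and 0.54.

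The proteasome subunit PAE1 rose in oxt6 in both comparisons, by 1.57 (adjusted p = 9.62e-05) and 1.22 (adjusted p = 6.98e-05, limma), whereas PBB1 and PBG1 were by the rule low, and PAB2 differed by 0.19 and -1.14. Among nuclear genes of the chloroplast NDH complex, NDHL rose in both comparisons (1.41 and 1.38), whereas CRR6 was by the rule low. NDHS (0.43 and -1.36) and NDHN (-0.42 and -2.15) passed against the complemented plants alone. The mRNA export adaptors ALY2 (0.00 and -1.58) and ALY3 (-0.37 and -0.45) also passed only there. PETE1, a plastocyanin that carries electrons to photosystem I, was lower in both (-1.22 and -1.39). No relative could be tested in the lists of wall-associated kinases, germin-like proteins, calcium pumps, secretion at infection sites, cysteine synthesis, mitochondrial import, or cutin and suberin hydroxylases.

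The overlap of the members with published lists of stress-responsive probe sets, which the study used to compare its own arrays, was mostly small. The singlet oxygen list of 318 probe sets held 5 members (5.81% of members, 1.57% of the list), namely ERD6, 249910_at, AT3G05220, AT1G11960 and AT1G63830, where 1.61% of all 6604 probe sets at the required level are in it. The heat shock list of 983 held 8 members (9.30%, 0.814% of the list), close to the 9.15% of all. The hydrogen peroxide list of 295 held 1 (1.16%, against 1.12%), and the superoxide list of 195 held 2 (2.33%, against 1.48%), AT1G07050 and AT4G38550. The rule had already removed families of the same responses from the members, but the 6604 probe sets still hold them. The 2 kinds of share are thus not filtered alike, and they only describe the probe sets that remained.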

How the data were processed

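Leaf RNA of 10 samples was hybridised to Affymetrix ATH1 arrays. Per the study's methods the authors made the deposited intensities from the scans in ArrayAssist with PLIER (version not given in the sources used here), on a linear scale and normalized together, so levels of different probe sets are not compared as amounts of RNA. Groups came from the sample labels. The members and lists were chosen with earlier results of these data known.

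From these intensities, ratios were taken between arrays or group means. Tests used limma 3.58.1 in R 4.3.3 on log2(value + 1), with trend and Benjamini-Hochberg adjustment at 0.05 over the 12453 brightest of 22746 probe sets. Comparisons among the wild type, oxt6 and complemented plants came from a fit in which the 4 complemented arrays were pooled as a group. Differences between the lines thus counted in the spread of that fit. Only the comparison between the lines came from a fit with the 4 groups kept separate. The 3'/5' signal used an exact permutation test. The limma step was tested on simulated data. Python 3.11.15, pandas 2.3.3, scipy 1.17.1 and matplotlib 3.10.9 were used. The number of arrays limits the precision.

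Genes were named from the platform annotation and the study's tables, used for names and list membership only. Those tables include a list of genes that differed between oxt6 and the wild type, so naming was not independent of these data. Values in every array were given for the 12 widest gaps, 4 named probe sets on each side of the threshold, the 4 largest calls in each direction between complemented and wild-type plants, and the 2 brightest of each role group, and relatives by the largest called change, at most 2 a list and direction. WRKY70, AT1G07050, TSA1, GTR1, LAX1, LEA14, AT4G38550 and the probe sets called between the lines were added after their values were seen. Alternatives changed the offset, filter, threshold, scaling, weights, covariate, samples and test. A member and a probe set that the rule left out are not reported by name here.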

Additional observations from a re-analysis of the deposited data

Results flagged for a closer look

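In 4 of 86 members, 1 of the 4 complemented arrays stood far from the other 3 relative to their range. LAX1 read 651.4 in line 5 replicate 2, where the nearest array read 498.6, and PRA1.B4 read 204.3 there, where the nearest read 151.9. AT4G19410 read 550.1 in line 5 replicate 1 (nearest 717.8), and YLMG1-1 read 243.3 there (nearest 326.9). Chance alone puts about 5 percent of groups of 4 like arrays past the limit used. These 4 arrays come from 2 lines that often differed, so that rate need not hold here.

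The 2 complemented lines differed in limma's test, by line 5 minus line 6 on the log2 scale, for 246340_s_at (1.559), 245956_s_at (-0.7564), AGAL1 (-0.819) and 255852_at (-0.9506).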

How the results depend on the processing

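The rule found 86 members, and 13 with a separation of 2, 38 with arrays scaled to one median (32 of them members), 81 after quantile normalization (62 of them members) and 86 to 383 with 1 array left out, the highest without oxt6 replicate 1. The 40 members higher in the complemented plants became 17 with the 3'/5' signal as a covariate (19.8%, all probe sets 24.6%). They became 24 at p under 0.01, unadjusted, in the methods' t-test, and 32 to 45 with 1 array left out. The 6 lower became 2 at an adjusted p under 0.01 and 10 after quantile normalization (11.6%, all probe sets 37.8%). They became 2 after median scaling (2.33%, all probe sets 31.2%) and 3 by the methods' t-test. With 1 array left out they were 3 to 7 (3 without wild-type replicate 2 or either line 5 array). The 1 member higher in line 5 became 8 with array weights (9.3%, all probe sets 9.97%) and 4 with the covariate (4.65%, all probe sets 5.56%). That count became 9 with only the groups compared (10.5%, all probe sets 9.71%), and 1 to 3 with 1 array left out. The 3 higher in line 6 became 1 at an adjusted p under 0.01 and 6 with an offset of 16 (6.98%, all probe sets 1.32%). They became 6 over the 8000 brightest probe sets (7.23%, all 1.9%) and 0 after median scaling (all 0.65%). With array weights they became 29 (33.7%, all 10.9%), and with the covariate 11 (12.8%, all 3.14%). With only the groups compared they became 33 (38.4%, all 13.8%). Leaving out 1 array gave 0 to 12 (12 without oxt6 replicate 1, 14%, all 3.39%). Of the relatives, PR2 included, the 10 lower in oxt6 than the wild type became 6 at an adjusted p under 0.01, 5 in the methods' t-test with its p adjusted, and 7 to 10 with 1 array left out. The 6 higher than the complemented plants became 2 at an adjusted p under 0.01, 1 with the covariate, 2 and 3 by the methods' t-test before and after adjustment, 2 with line 5 alone, and 2 to 7 with 1 array left out (2 without oxt6 replicate 2, 3 without oxt6 replicate 3 or line 6 replicate 2). The 11 lower became 5 with the covariate and stayed at 11 with any array left out. With the covariate, the value of PME3, complemented against wild-type, was -0.01225, and that of YLMG1-1, complemented against wild-type, was -0.04691. The covariate moved the median of all probe sets in that comparison from 0.0435 to 0.363, and median scaling moved it to 0.173. The cause of these changes was not tested. Same-numbered wild-type and oxt6 arrays deviated together by r of 0.103, -0.206 and 0.13. For oxt6 with line 5, r was 0.113 and 0.179, and with line 6 it was -0.15 and -0.148. In the other pairs of groups r lay between -0.071 and 0.131. These values are small and of both signs, and they cannot settle whether same-numbered arrays are paired. The replicate block gave 33 members higher (38.4%, all probe sets 36.5%) and 4 lower (4.65%, all probe sets 31.2%) in the complemented plants. It gave 1 and 3 between the lines, and for relatives 2 higher and 9 lower, then 5 and 11. Omitting PR2, chosen after seeing the data, gave 9 lower than the wild type and 10 lower than the complemented plants. Over all 219 alternatives of these counts and of the 3'/5' differences, 179 stayed within 1.5 times or within the spread, and 40 did not.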
